A study of Homo sapiens with 9 samples.

Results

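MDA-MB-231 is a human breast cancer cell line that lacks oestrogen and progesterone receptors and HER2 amplification and has a mesenchymal, basal-type profile. Cells of this line received 10 nM pladienolide B (PdB) for 16 h, or were then kept for 24 h without the drug, or received the solvent DMSO, and poly(A) RNA was sequenced from 3 libraries per group. The comparison described here sets the 3 recovery libraries against the 3 DMSO libraries, 6 of the 9 libraries of the series, over all genes, and asks what still differed, or differed only then, a day after the drug. The 3 PdB libraries entered the same fit and were used to class each gene. All groups share the parental line, with no genetic change named in the labels. The labels name a single DMSO group without its collection time, so recovery and 24 h more in culture cannot be told apart. They do not say that replicates came from separate cultures, so the p-values measure the spread between these libraries, which may be technical.

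PdB is a macrolide that binds the SF3B complex. This complex belongs to the U2 snRNP, which marks the branch point near the end of each intron, so the drug blocks the first steps of splicing. Transcripts that keep introns can be held in the nucleus or destroyed. Cells that lose splicing are known to respond through stress kinases, through changes of splicing factor transcripts that carry their own regulatory exons, and through loss of cell cycle and DNA repair transcripts.

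The gene table held 56389689 to 67047079 counts per library. Of 20812 genes tested, 12733 (61.2%) differed between recovery and DMSO at an adjusted p below 0.05 (edgeR quasi-likelihood test, Benjamini-Hochberg over all genes), of which 6386 (30.7% of the genes tested) were higher and 6347 (30.5%) lower. By at least 2-fold, 2820 (13.5%) were higher and 2452 (11.8%) lower. The recovery and DMSO libraries did not overlap in CPM (counts scaled by library size) in 14656 genes, 70.4% of those tested. Within a group, log2 CPM correlated across genes at 0.995 to 0.998, and between DMSO and recovery libraries at 0.961 to 0.965. All changes are relative to library totals scaled by TMM factors, which centre the bulk of genes near no change. The near-even split into higher and lower genes may partly follow from this scaling. With unscaled library totals 6920 genes were higher and 5831 lower. No spike-in measured RNA per cell, and fewer cells of a state and less RNA per cell cannot be told apart in such bulk samples.

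Library composition at recovery differed from DMSO in all 3 libraries. Mitochondrially encoded genes took 4.67% to 5.59% of counts in DMSO and 8.02% to 8.18% at recovery, and snoRNA genes 0.0232% to 0.0281% and 0.0877% to 0.0916%. Genes with at least 10 counts numbered 19006 to 19405 in DMSO and 19981 to 20329 at recovery. None of these ranges overlapped, and for 3 libraries against 3 the exact two-sided permutation test gave its smallest possible p of 0.1 for each. Some markers of the line fitted its label, with 2812, 2892 and 2909 CPM of VIM in DMSO, no count of ESR1 in any library and at most 4 counts of PGR. FOXA1 and CDH1 were low in DMSO, at up to 0.05856 and 0.6929 CPM. GATA3, a luminal epithelial marker, was present, at 12.38 to 14.02 CPM in DMSO and 21.42 to 23.6 CPM at recovery. ERBB3 was present too, at 5.009 to 5.215 CPM in DMSO and 3.778 to 4.755 CPM at recovery. Of markers of other cells, CD3E had at most 2 counts, DCN at most 8 and PTPRC at most 33 in any library. CD14 reached 68 counts and PECAM1 71. The summed level of the leukocyte list was 98.9 to 108 CPM in DMSO and 84.3 to 88.9 CPM at recovery, nearly all of it from CD68 (96.8, 103 and 105 CPM in DMSO), and 1 of 7 leukocyte markers tested was higher and 2 lower. In the other list, 4 of 12 fibroblast and endothelial markers were higher and 2 lower (1 and 1 among genes with a mean of 50 counts or more). The summed level of that list was 21.1 to 27.7 CPM in DMSO and 35.1 to 40.8 CPM at recovery, with COL1A1 rising from at most 9.79 to at least 23.6 CPM. PDGFRB had 5.58 to 9.44 CPM in DMSO and 4.77 to 7.35 at recovery. The part of these cell types in the results was not tested. Without DMSO replicate 3, 2 leukocyte markers were higher and 1 lower.

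Genes that differed at recovery were classed by what they did under PdB, where 6649 genes (31.9% of those tested) were higher and 7926 (38.1%) lower than in DMSO. Both contrasts use the same DMSO libraries, so agreement between them is not independent. Still higher were 3904 genes, with a median log2 change of 1.00 at recovery and 1.40 under PdB, and still lower were 4189, with -0.88 and -1.15. Of the still lower genes, 1944 had moved back toward DMSO between PdB and recovery, 1204 did not differ between the 2 and 1041 had moved further from DMSO. Among the still higher genes these counts were 1978, 1285 and 641. Newly higher were 1144 genes and newly lower 1131, of which 907 and 937 also differed between recovery and PdB. A further 1027 genes turned from above DMSO under PdB to below it at recovery, and 1338 turned the other way, by at least 2-fold at recovery in 139 and 199 of them. Both turns depended on scaling: with library totals 602 genes turned from high to low and 1878 from low to high. Library totals shift the median change of all genes under PdB from -0.11 to -0.31.

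**Figure D1:**
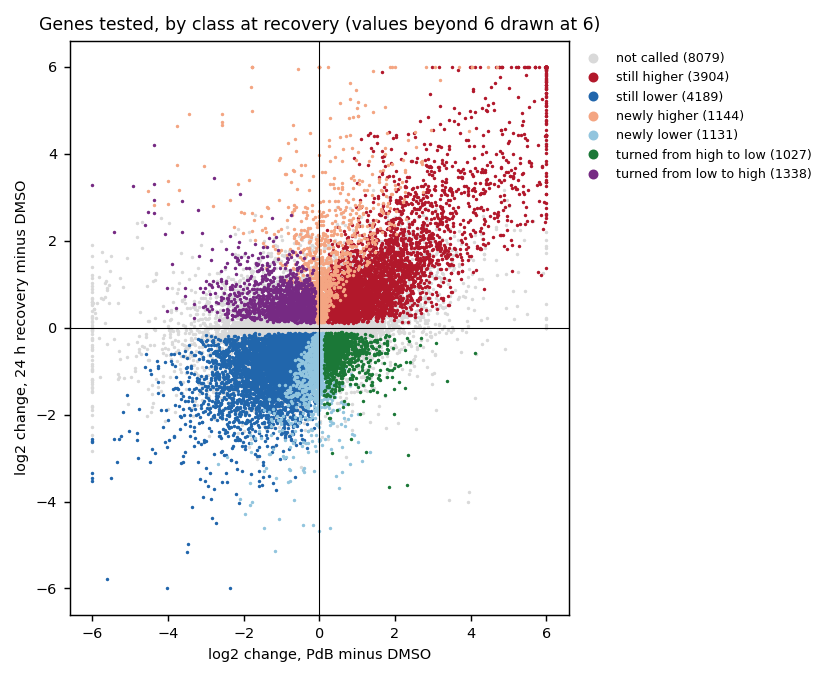
Log2 change from DMSO under PdB (horizontal) and at recovery (vertical) for each of 20812 genes tested, coloured by class, with the number of genes in the key. Both axes use the same DMSO libraries. The 3904 still higher and 4189 still lower genes fill the upper right and lower left, and the turned genes lie in the other corners.

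Transcripts of integrins and of the extracellular matrix were mostly lower at recovery. Of 29 integrin and adhesion genes tested, 22 were lower and 3 higher (median log2 change -1.01, against -0.74 under PdB), and of 37 collagen and matrix genes 25 were lower and 6 higher (median -0.73). Over all genes tested the median was 0.026, with 30.7% higher and 30.5% lower. These shares are the measure for each list count here and below. A signed value given for a gene below is its log2 change from DMSO at recovery unless PdB is named. Of 23 mesenchymal markers 14 were lower and 6 higher. Their summed level fell from 12898 to 13743 CPM in DMSO to 7324 to 8187 CPM at recovery.

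COL13A1, a collagen that spans the plasma membrane (ENSG00000197467.17, chromosome 10, 69801867 to 69964275 in hg38), had 215, 198 and 189 CPM in DMSO, 59.1, 61.2 and 51.1 under PdB and 20.3, 19.9 and 18.1 at recovery. All recovery libraries lay far below all DMSO libraries, and below all PdB libraries too. The log2 change from DMSO was -3.37 ± 0.074 (adjusted p = 1.37e-17), and that from PdB -1.56 (adjusted p = 9.03e-14). LOXL2, an enzyme that cross-links collagen, had 469, 452 and 491 CPM in DMSO, 364, 348 and 419 under PdB and 62.9, 62.8 and 81.5 at recovery (log2 change -2.77 ± 0.11, adjusted p = 1.21e-09). PdB moved it little, and the large step came afterwards. The same order was seen for HSPG2, the basement membrane proteoglycan perlecan, at 192, 154 and 164 CPM in DMSO, 125, 119.5 and 169 under PdB and 21.7, 19.6 and 28.5 at recovery (log2 change -2.87 ± 0.2, adjusted p = 9.03e-06). It did not pass the test under PdB (-0.30, adjusted p = 0.186). COL6A3 and COL5A1, microfibrillar and fibrillar collagen chains, were newly lower as well, at -3.31 and -2.59. COL5A1 stood at the threshold under PdB (adjusted p = 0.0502) and passed it there under DESeq2 or library totals.

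Other matrix genes went the other way. VCAN, LAMA1 and ADAMTS1 were higher, by 1.24, 3.47 and 2.05 on the log2 scale. MMP3, a matrix-degrading protease, had 0, 0 and 0 counts in DMSO, 0, 0 and 12 under PdB and 12, 14 and 14 at recovery, close to the floor. COL1A1, the main chain of type I collagen, had 9.8, 7.96 and 8.13 CPM in DMSO and 23.9, 23.6 and 24.1 at recovery. COL3A1, whose chain builds type III collagen, had 0, 1 and 0 counts in DMSO, 1, 10 and 2 under PdB and 59, 65 and 98 at recovery. MMP3 and COL3A1 met the filter on low counts only through the recovery libraries, so they could hardly be called other than higher. COL1A1 and COL3A1 are on the list of fibroblast and endothelial markers. PDGFRA of that list was higher with them, from at most 0.0144 CPM in DMSO to 0.175 to 0.37 CPM at recovery (adjusted p = 0.00243, at most 25 counts in any library), while DCN stayed at or under 8 counts. The part of fibroblasts in these rises was not tested.

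Several abundant cytoskeletal and adhesion transcripts were lower; no cytoskeleton list was counted. VIM, the intermediate filament protein vimentin (ENSG00000026025.16, chromosome 10, 17228259 to 17237593), had 2812, 2892 and 2909 CPM in DMSO, 2260.2, 2218 and 2008 under PdB and 1102, 1102 and 1079 at recovery. Each group lay apart from the others, and recovery was 2.62-fold below DMSO (log2 change -1.39 ± 0.046, adjusted p = 2.12e-15). MYH9, the heavy chain of non-muscle myosin IIA, changed by -1.51 ± 0.05 (adjusted p = 2.13e-15), the actin cross-linker ACTN4 by -1.66, vinculin (VCL) by -1.35 and talin (TLN1) by -1.02. FLNA, the actin-binding filamin A, had 4600.5, 4352 and 4279.7 CPM in DMSO, 4330.4, 4307 and 4426 under PdB and 2476, 2464 and 2557 at recovery. It was newly lower with the main scaling, and its small change under PdB took either sign with others. ITGB4, the integrin of hemidesmosomes, changed by -1.79 ± 0.18 (adjusted p = 8.73e-05). FERMT2, an activator of integrins, was 1 of the 3 adhesion genes that rose, at 97.3, 99.2 and 93.4 CPM in DMSO, 35.3, 35.8 and 38.3 under PdB and 153, 152 and 149.8 at recovery (log2 change 0.65 ± 0.05, adjusted p = 5.1e-10).

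Identity markers did not move as a block. CD44, AXL and EGFR, surface proteins typical of this line, were lower, at -0.47, -1.31 and -1.15, and ZEB1 and SNAI2, transcription factors of the mesenchymal state, by -0.65 and -0.93. SNAI1, another such factor, had 0.659, 0.983 and 0.823 CPM in DMSO and 8.71, 7.91 and 8.74 at recovery (log2 change 3.36 ± 0.23, adjusted p = 7.47e-11), and N-cadherin (CDH2) was higher by 1.72. Of 20 luminal epithelial markers 5 were higher and 5 lower: CLDN4 and EPCAM were lower, at -1.26 and -1.13, while GATA3, ELF3 and CDH1 were higher by 0.74, 1.95 and 2.03, CDH1 from at most 0.693 CPM in DMSO. Without DMSO replicate 1, 3 of these markers were higher. Of 37 genes of growth factor signalling, 19 were lower and 7 higher, with the receptor kinase FGFR1 at -1.38. ERBB4, a receptor of neuregulins, was higher, at 0, 0.0793 and 0.0578 CPM in DMSO and 1.52, 1.85 and 0.697 at recovery. It met the filter on low counts only through the recovery libraries. Of 30 targets of YAP and TGF-beta, 14 were lower and 12 higher. BAMBI, a decoy receptor of the TGF-beta pathway, changed by 2.13 ± 0.093 (adjusted p = 9.3e-14). In the list of drug transport and chemotherapy response, 19 of 27 were lower and 3 higher (5 higher with upper-quartile factors or library totals). DPYD, which degrades fluorouracil, fell from 96.8, 95.9 and 90.2 CPM in DMSO to 39.4, 40.3 and 28.5 under PdB and 13.7, 13.9 and 15 at recovery (log2 change -2.73 ± 0.1, adjusted p = 3.53e-13). SLFN11, which blocks stalled replication forks, had 0.249, 0.159 and 0.13 CPM in DMSO, 10.2, 11 and 10.0 under PdB and 0.417, 0.431 and 0.4 at recovery: nearly all of its rise under PdB was gone, and the remaining log2 change was 1.2 ± 0.3 at this low level (adjusted p = 0.00144).

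**Figure D2:**
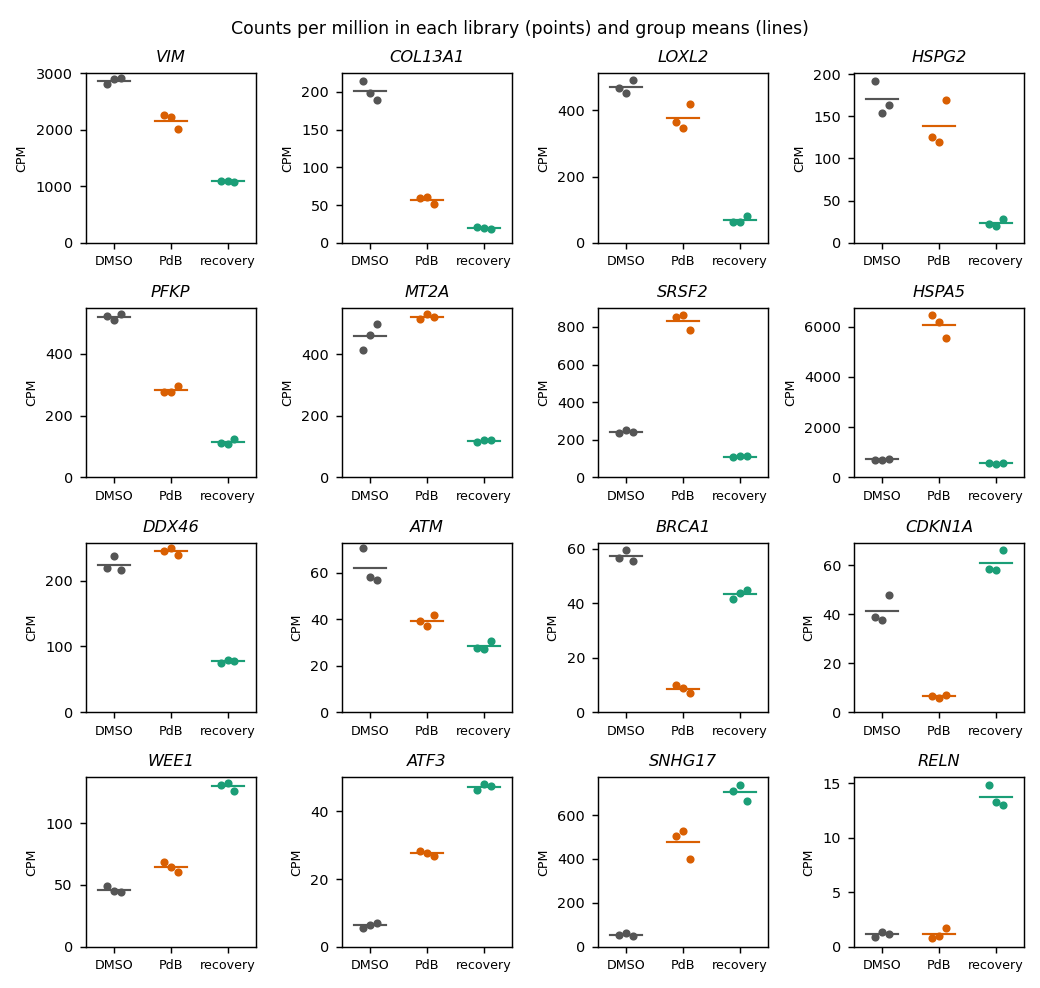
CPM of 16 genes in each of the 9 libraries (points; vertical axes start at 0) with the mean of each group (lines), for DMSO, PdB and 24 h recovery. The recovery points of VIM, COL13A1, LOXL2, HSPG2, PFKP and MT2A lie below all others, those of WEE1, ATF3, SNHG17 and RELN above all others, and HSPA5 and SRSF2 fall from a high PdB level to below DMSO.

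Glycolysis and hypoxia-response genes formed another broadly lower group: 29 of 38 were lower and 3 higher (median -0.65), although 15 were higher and 18 lower under PdB. A group of 11 turned from above DMSO to below it. PFKP, the platelet form of phosphofructokinase (ENSG00000067057.18, chromosome 10, 3066333 to 3137712), had 521, 508 and 527 CPM in DMSO, 277, 275 and 294 under PdB and 111, 109 and 123 at recovery. It lay 4.53-fold below DMSO with no overlap (log2 change -2.18 ± 0.052, adjusted p = 4.09e-17), and the other phosphofructokinase genes PFKM and PFKL changed by -1.26 and -1.12. GAPDH, often used as a reference transcript, had 3314, 3331 and 3318 CPM in DMSO, 4381, 4155 and 4276 under PdB and 2048, 1995 and 1999 at recovery. Its level thus went up and then below the start (log2 change at recovery -0.72 ± 0.039, adjusted p = 2.19e-12). LDHA, TPI1 and PGK1 turned in the same way, to -0.69, -0.96 and -0.66. CA12 and CA9, carbonic anhydrases that rise in hypoxia, were lower, at -2.10 and -1.19, and HIF1A itself did not pass the test (-0.047, adjusted p = 0.368). SLC2A3, a glucose transporter, was 1 of the 3 higher members (0.86 ± 0.092, adjusted p = 9.05e-08), with ADM and KDM3A.

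Sterol and fatty acid synthesis was mostly lower too. Of 30 genes 18 were lower and 7 higher. LSS, which closes the sterol ring, had 112, 114 and 113 CPM in DMSO, 66.9, 71.2 and 66.9 under PdB and 27.9, 29.3 and 30.7 at recovery (log2 change -1.95 ± 0.056, adjusted p = 3.71e-16). ACACA, the first enzyme of fatty acid synthesis, changed by -1.88, and SREBF2, the transcription factor of the pathway, by -0.73. HMGCS1, an early enzyme of the pathway, was higher, by 0.91 ± 0.09 (adjusted p = 2.3e-08).

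Nuclear genes of oxidative phosphorylation and mitochondrially encoded genes stood differently. Of 71 nuclear genes of oxidative phosphorylation 16 were higher and 31 lower at recovery, against 51 higher and 11 lower under PdB, and 15 turned from high to low. Their median, -0.058, was above 0 with upper-quartile factors or library totals. CYC1, the cytochrome c1 of complex III, had 130.1, 139.9 and 151 CPM in DMSO and 56, 56.3 and 62.5 at recovery (log2 change -1.27 ± 0.06, adjusted p = 2.49e-13), and NDUFB9 of complex I changed by 0.62 ± 0.082 (adjusted p = 1.37e-06). Of 15 mitochondrially encoded genes, a list that includes ribosomal RNA, 13 were higher. MT-RNR1, the small ribosomal RNA of mitochondria, had 284, 303 and 313 CPM in DMSO, 870.2, 794 and 787 under PdB and 1174, 1136 and 1142 at recovery, and was the furthest of the list from DMSO (log2 change 1.94 ± 0.05, adjusted p = 1.02e-16). MT-CO1 and MT-CO3 did not pass the test (0.091 and 0.20). IDH3G, a subunit of isocitrate dehydrogenase in the citric acid cycle, was among the largest falls of its class, with 53.5, 57.9 and 49.8 CPM in DMSO, 66.7, 66.8 and 58.4 under PdB and 12.9, 13.1 and 12.3 at recovery (log2 change -2.07 ± 0.076, adjusted p = 7.03e-15). Its small rise under PdB did not pass the test with library totals.

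Metallothioneins, small proteins that bind zinc and copper, were lower at recovery: MT2A, MT1E, MT1F, MT1X and MT1A changed by -1.95, -1.54, -1.40, -1.30 and -1.07. These genes are near-copies of each other and may share reads. MT2A (ENSG00000125148.7, chromosome 16, 56608199 to 56609497) had 415, 461 and 496 CPM in DMSO, 513, 529 and 520.1 under PdB and 113, 121 and 120.3 at recovery. The recovery libraries were 3.87-fold lower than DMSO (adjusted p = 3.71e-16), and the rise under PdB (0.19) was lost with library totals. MTF1, the zinc-sensing factor that drives these genes through metal response elements, was higher, at 24.2, 22.8 and 24 CPM in DMSO and 64.8, 64.6 and 61.9 at recovery (log2 change 1.43 ± 0.054, adjusted p = 1.25e-14). Of the whole list of 12, 7 were lower and 2 higher. The 250 bases before the RefSeq start of MT2A (chr16:56608334-56608583, GRCh38.p14, + strand) are shown because they hold 7 matches to the metal response core searched (TGCACNC or TGCGCNC, both strands, capitals). A match is a description, and 38.4% of the 11135 protein-coding promoters searched over 300 bases hold at least 1.
MT2A: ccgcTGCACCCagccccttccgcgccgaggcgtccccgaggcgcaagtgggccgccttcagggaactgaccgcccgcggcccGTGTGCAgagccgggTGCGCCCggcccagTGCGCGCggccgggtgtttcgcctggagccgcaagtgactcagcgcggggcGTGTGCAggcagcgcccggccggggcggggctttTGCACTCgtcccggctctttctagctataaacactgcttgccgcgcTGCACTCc

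Most genes of the list that holds the drug's target, the SF3B complex, were higher at recovery, though not all members of SF3B were. Of 23 SF3B and U2 snRNP genes, 17 were higher and 4 lower (2 lower with other scalings, with DESeq2, and without DMSO replicate 2 or recovery replicate 2), with a median of 0.45 against 0.032 under PdB, and 7 of them had turned from below DMSO. SF3B1, the subunit that holds the branch point helix (ENSG00000115524.17, chromosome 2, 197389784 to 197435091), had 257, 258 and 263 CPM in DMSO, 528, 521 and 534 under PdB and 392, 376 and 398 at recovery. Recovery lay between the other groups, with no overlap (log2 change 0.59 ± 0.042, adjusted p = 1.45e-10). SF3B4 behaved likewise, at 114, 120.1 and 120.3 CPM in DMSO, 419.5, 398 and 403 under PdB and 329, 317 and 310.1 at recovery, and was the highest of the list (log2 change 1.43 ± 0.046, adjusted p = 1.43e-15). PHF5A, which forms the drug pocket with SF3B1, was back at its starting level: 26.3, 28.8 and 23.5 CPM in DMSO and 27.6, 27.2 and 24.7 at recovery (0.016 ± 0.085, adjusted p = 0.885). U2AF1 and U2AF2, which read the 3′ splice site, were higher by 1.32 and 0.39. U2AF1 has a near-identical copy in hg38 that may share its reads.

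DDX46 was the exception in size. This helicase, the human counterpart of yeast Prp5, remodels the U2 snRNP at the branch point. It had 219.8, 238 and 216 CPM in DMSO, 246, 249.6 and 239 under PdB and 74.6, 78.8 and 78.6 at recovery (ENSG00000145833.16, chromosome 5, 134758771 to 134855133). The level barely moved under the drug (0.12, not past the test with library totals) and then fell 2.91-fold below DMSO (log2 change -1.54 ± 0.05, adjusted p = 1.68e-15). SF3B3 was lower, at -0.42.

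Regulators of splicing stood on both sides of DMSO. Of 22 SR proteins and their kinases, 10 were higher and 9 lower, where 16 had been higher under PdB. SRSF2, an SR protein whose own transcript is controlled by splicing, had 235, 251 and 241 CPM in DMSO, 852, 863 and 784 under PdB and 108, 112 and 112 at recovery. It went from far above DMSO to 2.19-fold below it (log2 change -1.13 ± 0.048, adjusted p = 5.2e-14). SRSF1, SRSF3, SRSF6 and SRSF7 were also below DMSO, by -0.33, -0.32, -0.50 and -0.47, whereas the 4 CLK kinases, which phosphorylate SR proteins, were all above it, CLK3 the most (1.53 ± 0.068, adjusted p = 1.17e-13). The other higher members were the SR and SR-like proteins SRSF5, SRSF10, SRSF11, SRRM1 and SON (0.38, 0.16, 0.12, 0.53 and 0.69) and the kinase SRPK2 (0.18). SRSF4, SRSF9, TRA2A and the kinase SRPK1 made up the rest of the lower ones (-0.37, -0.43, -0.53 and -1.02). Of 27 hnRNP genes 8 were higher and 14 lower (9 lower under library totals and 8 under upper-quartile scaling). PTBP3 turned from 56.4, 54.2 and 61.4 CPM under PdB to 161, 165 and 169 at recovery, above its DMSO values of 92.5, 85.4 and 93.2 (log2 change 0.87 ± 0.055, adjusted p = 2.37e-11). Of 51 other core spliceosome genes 29 were higher and 15 lower, from SYF2 at 1.31 to SNRNP25, a protein of the minor spliceosome, at -1.36. Of 18 factors of nonsense-mediated decay, which destroys transcripts with early stop codons, 7 were higher and 6 lower. These shares, 38.9% and 33.3%, were not far from those over all genes tested. RNPS1 rose by 1.07, and SMG6 and NBAS were lower, at -1.41 and -1.88.

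Small nucleolar RNAs and their hosts stood high. Of 25 snoRNA host genes 18 were higher and 1 lower (median 0.87). SNHG17 (ENSG00000196756.13, chromosome 20, 38420588 to 38435353) had 53.5, 63.9 and 46.9 CPM in DMSO, 504, 529 and 402 under PdB and 711, 738 and 662 at recovery. It had gone on rising after the drug (0.56 from PdB, adjusted p = 0.00537), to 12.9-fold above DMSO (log2 change 3.68 ± 0.15, adjusted p = 5.24e-08). GAS5 followed the same order, at 68.8, 76.9 and 67.6 CPM in DMSO, 114, 116 and 103 under PdB and 169, 172 and 149.7 at recovery (log2 change 1.2 ± 0.065, adjusted p = 2.26e-12). Among genes named SNORA and SNORD, a grouping made after the values were seen, 78 of 105 and 108 of 130 tested were higher and 1 and 2 lower. SNORA68 had 19, 26 and 4 counts in DMSO and 1142, 981 and 1015 at recovery. Mature snoRNAs lack a poly(A) tail, and in these counts a snoRNA and reads from the host intron around it cannot be told apart.

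Cell cycle transcripts came back unevenly. Of 56 genes of G2 and mitosis, 48 were lower under PdB (median -1.83). At recovery 22 of the list were still lower, 17 had turned to above DMSO, 13 did not differ and the median was -0.061 (0.015 under upper-quartile scaling). TTK, the kinase that starts the spindle checkpoint, had 50.7, 53 and 48.3 CPM in DMSO, 8.05, 9.57 and 8.84 under PdB and 91.8, 86.1 and 84.8 at recovery. It passed from the lowest level to the highest (0.79 ± 0.066 from DMSO, adjusted p = 1.56e-09). CDCA8, the borealin subunit of the chromosomal passenger complex, went from 20.1, 18.8 and 21 CPM under PdB to 175, 175 and 172, against 99.8, 103 and 104 in DMSO (log2 change 0.77 ± 0.05, adjusted p = 3.95e-11). AURKA and UBE2C turned as well, to 0.49 and 0.64. TOP2A, the topoisomerase that untangles chromosomes, went only part of the way: 717, 690.1 and 651 CPM in DMSO, 35.3, 35.1 and 35.4 under PdB and 413, 398 and 404 at recovery (log2 change -0.76 ± 0.044, adjusted p = 6.58e-12). KIF15, a spindle motor, remained the furthest below, with 70.7, 69.3 and 72.7 CPM in DMSO, 10.1, 9.57 and 9.78 under PdB and 28.6, 28.3 and 27.3 at recovery (log2 change -1.34 ± 0.064, adjusted p = 3.11e-13). MKI67 did not pass the test (0.00061, adjusted p = 0.995).

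Replication genes stayed lower. Of 51, 33 were lower and 7 higher (median -0.44, against -1.16 under PdB). CDC45, part of the replicative helicase, had 52.1, 57.5 and 50.3 CPM in DMSO, 8.46, 7.5 and 7.65 under PdB and 16.8, 16.4 and 14.9 at recovery (log2 change -1.73 ± 0.083, adjusted p = 3.23e-13). The catalytic subunits of the 3 replicative polymerases, POLA1, POLD1 and POLE, were lower, at -1.71, -1.18 and -1.53, and the nucleotide synthesis enzymes RRM2 and TYMS at -1.56 and -1.25. POLE3, an accessory subunit, was higher (0.69 ± 0.051, adjusted p = 2.76e-10). Of 24 regulators of the G1/S step, 14 were lower and 4 higher. E2F1, which drives entry into S phase, had 116, 127 and 119 CPM in DMSO, 38.7, 38.9 and 37.4 under PdB and 69.1, 70.9 and 67.9 at recovery (log2 change -0.80 ± 0.053, adjusted p = 4.78e-11), and RB1, the brake on it, was lower, at -1.22. CCNE2 did not pass the test (-0.10, adjusted p = 0.353), while CCND2 changed by 2.78 ± 0.3 (adjusted p = 9.28e-08). Of 6 inhibitors of cyclin-dependent kinases 3 were lower, CDKN3 the most (-1.96), and CDKN1A was higher (2 were higher when only the 6 libraries were fitted). CDKN1A had 38.8, 37.4 and 47.7 CPM in DMSO, 6.46, 5.9 and 6.86 under PdB and 58.4, 58 and 66.2 at recovery (log2 change 0.56 ± 0.087, adjusted p = 1.06e-05). Of 29 replication-dependent histone genes, whose mRNAs end without a poly(A) tail, 7 were higher, 0 lower and 22 not called. The share higher, 24.1%, was below that over all genes tested. The list was low, at 55.3 to 76.1 CPM summed in DMSO.

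Promoters of the mitotic list share the CHR element (TTTGAA, both strands), through which repressor and activator complexes time G2 genes. It lay in 77.1% of 48 promoters of the list, against 9.88% of all 11135. Of the 37 members with the element 10 were higher and 15 lower at recovery, and of the 11 without it 3 and 7. CDCA8, which ended above DMSO, and KIF15, the largest fall of the list, are shown for the 150 bases before the RefSeq start, with the element in capitals. CHR matches overlapped an NF-Y box (CCAAT) in 8 and an ISRE core in 20 of 1100 promoters that hold one.
CDCA8 (chr1:37692366-37692515, +): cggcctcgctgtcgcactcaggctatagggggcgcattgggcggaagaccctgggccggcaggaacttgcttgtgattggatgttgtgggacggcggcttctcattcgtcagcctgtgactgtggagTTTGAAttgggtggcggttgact
KIF15 (chr3:44761644-44761793, +): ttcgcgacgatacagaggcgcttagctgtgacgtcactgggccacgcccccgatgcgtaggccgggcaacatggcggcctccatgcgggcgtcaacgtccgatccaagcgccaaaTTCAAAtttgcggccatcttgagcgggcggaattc
The element stands 23 bases before the start of CDCA8, in the forward reading, and 35 bases before that of KIF15, as its reverse complement. Both genes were low under PdB, and at recovery the first lay above DMSO and the second below it.

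**Figure D3:**
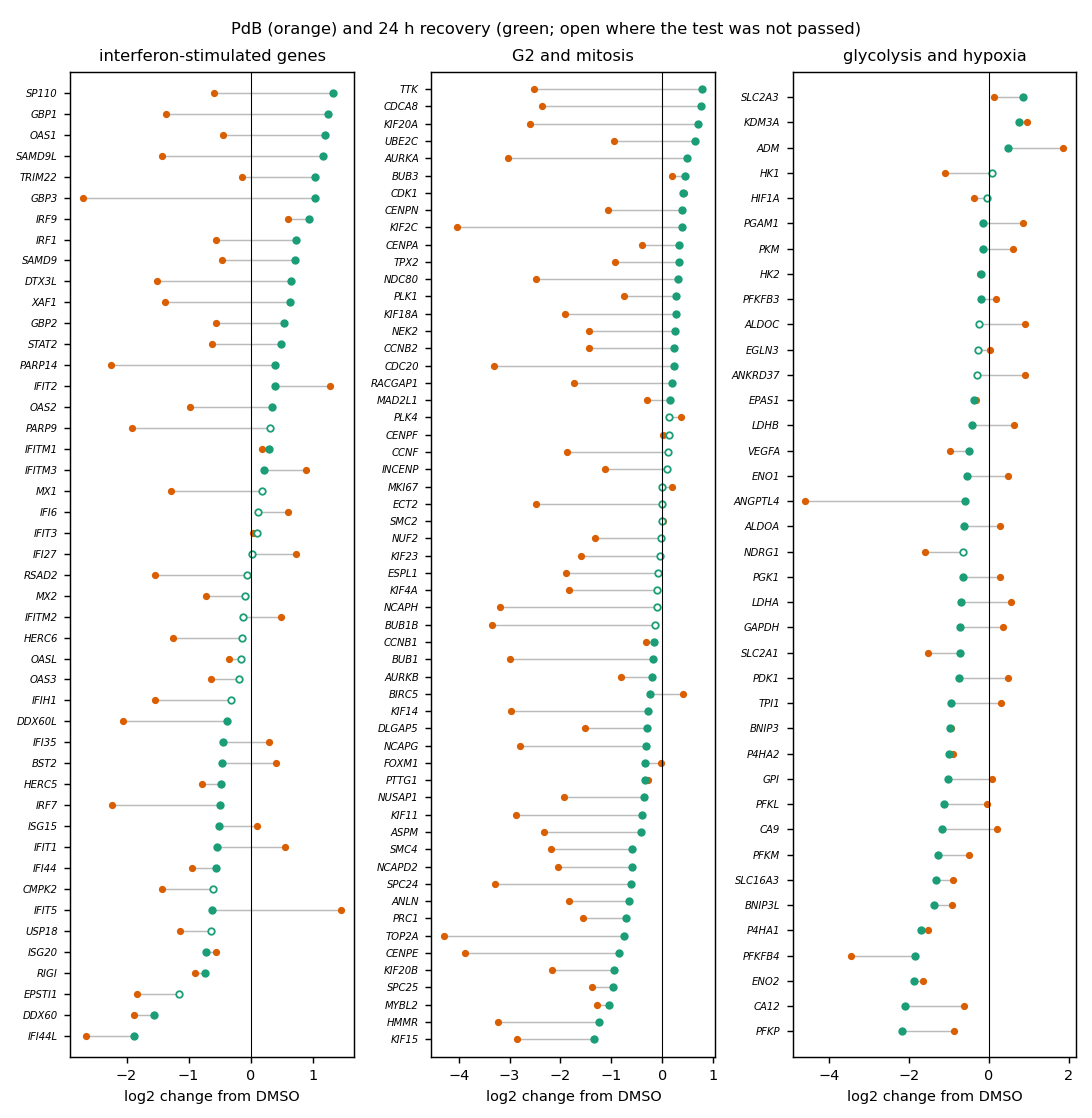
Log2 change from DMSO for members tested of 3 gene lists, under PdB (orange) and at recovery (green, filled where the test was passed). Both points of a gene use the same DMSO libraries. Interferon and mitotic genes end on both sides of 0, while 29 of 38 glycolysis and hypoxia genes are lower past the test.

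DNA repair remained lower on the whole, and several sensors of damage were further from DMSO at recovery than under the drug. Of 45 genes of homologous recombination, 27 were lower and 8 higher (median -0.39, -0.94 under PdB), and 22 of the 27 had been lower under PdB. BRCA1, a scaffold of this pathway, had 56.5, 59.6 and 55.4 CPM in DMSO, 9.88, 8.88 and 7.17 under PdB and 41.3, 43.9 and 44.8 at recovery. Most of the loss was regained, and the rest passed the test (log2 change -0.40 ± 0.083, adjusted p = 0.000278). BRCA2 was lower, at -0.64. MRE11, RAD50 and NBN, which together find and trim broken ends, were lower, at -1.56, -1.07 and -0.36. SPIDR, a scaffold of recombination, had 29.1, 29 and 27.9 CPM in DMSO, 19.4, 16.2 and 19.1 under PdB and 8.77, 7.7 and 9.07 at recovery, and fell again after the drug (-1.10 from PdB, adjusted p = 2.63e-09). UIMC1 and RNF8, which read and write ubiquitin at breaks, were higher, by 1.04 and 1.01.

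The apical kinases showed the same second step. ATM, activated by double-strand breaks (ENSG00000149311.20, chromosome 11, 108222484 to 108369102), had 70.8, 58 and 56.8 CPM in DMSO, 39.1, 37.2 and 41.8 under PdB and 27.8, 27.3 and 30.8 at recovery. Recovery was the lowest group without overlap (log2 change -1.11 ± 0.082 from DMSO, adjusted p = 2.41e-10, and -0.46 from PdB, adjusted p = 5.37e-05). ATR, activated at stalled forks, had 49.4, 47.7 and 44.1 CPM in DMSO, 27.3, 34.4 and 33.2 under PdB and 22.2, 20.1 and 22.6 at recovery (log2 change -1.12 ± 0.086, adjusted p = 4.1e-10, and -0.55 from PdB, adjusted p = 1.03e-05). PRKDC, the kinase of end joining, was lower, at -1.82, and PARP1, a sensor of single-strand breaks, had 346, 353 and 332 CPM in DMSO, 239, 245 and 223 under PdB and 169.9, 165 and 163 at recovery (log2 change -1.05 ± 0.047, adjusted p = 1.44e-13). WEE1, which holds CDK1 inactive before mitosis, was instead at 48.8, 45.4 and 44.2 CPM in DMSO, 68.7, 64.5 and 60.2 under PdB and 131, 133 and 126 at recovery (log2 change 1.49 ± 0.059, adjusted p = 2.21e-14), and CHEK1 changed by 0.31. Of 25 checkpoint genes 9 were higher and 12 lower. Of 22 end joining genes 7 were higher and 11 lower, from the ligase LIG4 at 1.09 to APLF at -2.58.

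Of 22 Fanconi anaemia genes, which repair cross-links, 13 were lower and 4 higher (7 higher with upper-quartile factors). FAAP100, a subunit of the core complex, had 63.2, 68.7 and 64.1 CPM in DMSO, 58.9, 58.8 and 59.4 under PdB and 21.3, 19.2 and 20.4 at recovery (log2 change -1.69 ± 0.063, adjusted p = 9.68e-15), so that nearly all of its fall came after the drug. FAAP24, another core partner, rose from 2.28, 1.94 and 1.46 under PdB to 11.8, 11.4 and 10.3, above 4.69, 4.66 and 4.07 in DMSO (log2 change 1.32 ± 0.16, adjusted p = 3.28e-07). Of 43 genes of excision and mismatch repair 12 were higher and 22 lower, from TDG at 0.90 to the glycosylase NEIL3 at -2.61. Among 25 genes that remove or prevent R-loops, hybrids of RNA with its DNA template, 8 were higher and 14 lower. The subunits of RNase H2, which cuts RNA in such hybrids, were all lower (RNASEH2A -1.26, RNASEH2B -1.12 and RNASEH2C -1.01), and so was the helicase RTEL1 (-1.65 ± 0.075, adjusted p = 1.55e-13). TOP1, which relaxes DNA ahead of polymerases, turned from low to high, with 253, 263 and 257 CPM in DMSO, 156, 163 and 149 under PdB and 437, 424 and 427 at recovery (log2 change 0.74 ± 0.045, adjusted p = 1.29e-11).

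**Figure D4:**
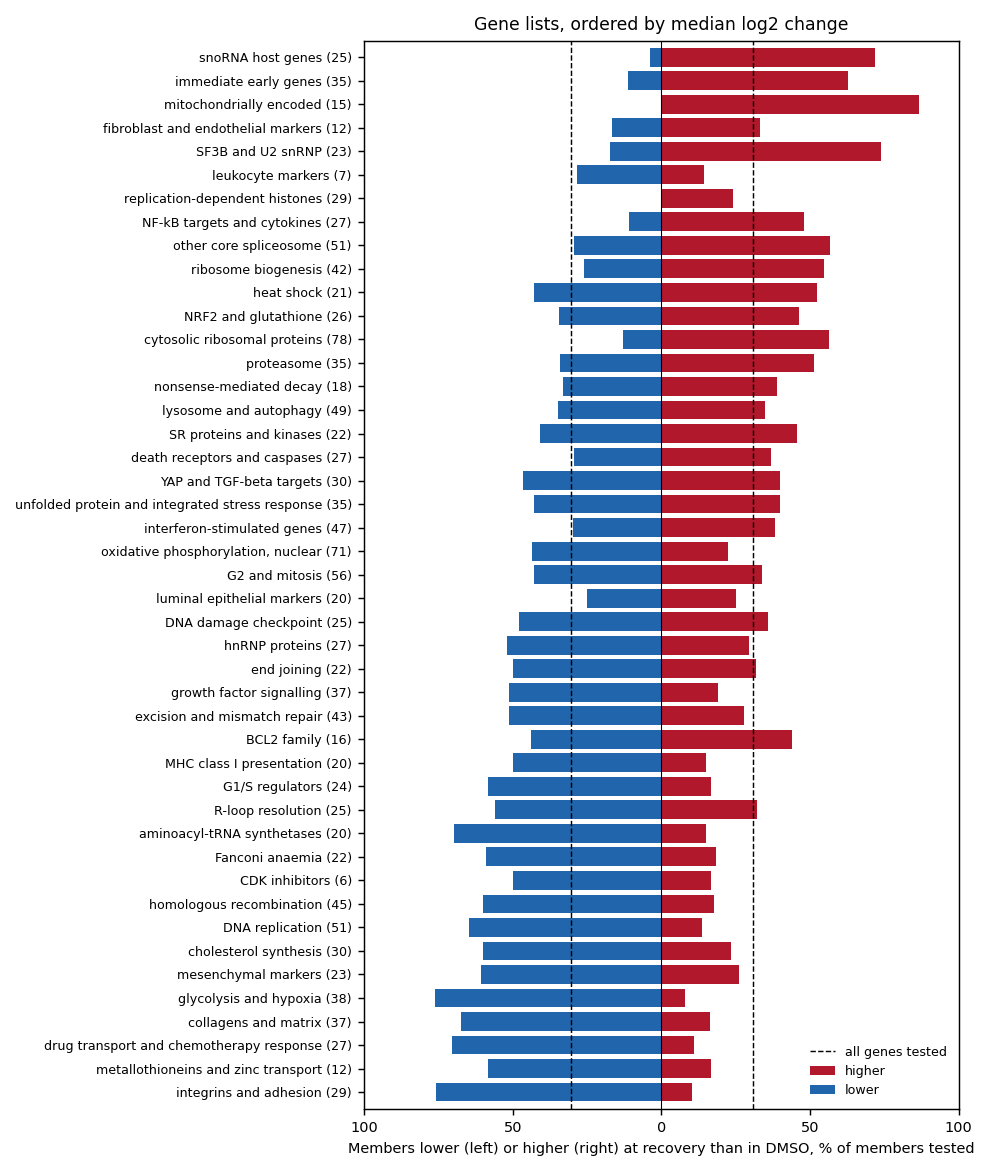
Share of tested members lower (left) or higher (right) at recovery than in DMSO by gene list, with the number of members tested in brackets, ordered by median log2 change. Dashed lines mark the shares over all genes tested, 30.5% lower and 30.7% higher. Adhesion, metallothionein, drug response and matrix lists stand at the lower end, and snoRNA host and immediate early lists at the upper end.

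Members of the stress response to unfolded proteins, with its integrated branch, stood on both sides of DMSO. Of 35 genes 14 were higher and 15 lower, and 11 turned from high to low. HSPA5, the main chaperone of that compartment (ENSG00000044574.9, chromosome 9, 125234853 to 125241330), had 699.8, 709 and 739.6 CPM in DMSO, 6449.6, 6173 and 5536 under PdB and 563, 549 and 566 at recovery. Its peak was gone and the level had dropped under the start (log2 change -0.36 ± 0.05, adjusted p = 2.59e-06). CRELD2, PDIA4, HSP90B1 and CALR, which also act in protein folding there, ended at -1.47, -1.29, -1.01 and -0.77. PPP1R15A, which reverses the translation block of the integrated stress response, had 174, 203 and 179.9 CPM in DMSO, 835, 872 and 749 under PdB and 547, 537 and 510.4 at recovery (log2 change 1.52 ± 0.061, adjusted p = 4.6e-14). ATF4 and DDIT3, transcription factors of the same response, were higher by 0.73 and 0.95, down from 1.01 and 2.31 under PdB. Of 21 heat shock genes 11 were higher and 9 lower, with the small heat shock protein HSPB8 at 1.86 and HSPA4L at -2.61. HSPA1B was lower (-0.39) and HSPA1A did not pass the test (0.081), but these near-identical genes may share reads. Of 26 NRF2 targets and glutathione genes 12 were higher and 9 lower. TXNRD1, SLC7A11 and GCLC, which keep thiols reduced, were higher by 1.47, 1.48 and 1.27, and the reductase AKR1B10 by 3.04. HMOX1 had returned to 8.77, 9.01 and 8.46 CPM from 20.4, 22.8 and 22.5 under PdB, against 6.87, 7.09 and 8.62 in DMSO (log2 change 0.22 ± 0.11, adjusted p = 0.0971), and passed the test with other scalings and without DMSO replicate 3.

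Immediate early genes, transcription factors and regulators that cells switch on soon after a signal, were mostly still raised a day later. Of 35, 22 were higher and 4 lower (median 0.66, 1.36 under PdB). ATF3, a stress-induced transcription factor (ENSG00000162772.17, chromosome 1, 212565334 to 212620777), had 5.59, 6.42 and 7.05 CPM in DMSO, 28.2, 27.8 and 26.8 under PdB and 46.3, 47.9 and 47.5 at recovery. It had risen further after the drug (0.78 from PdB, adjusted p = 2.52e-08) and was 7.43-fold above DMSO (log2 change 2.89 ± 0.087, adjusted p = 6.79e-16). The nuclear receptors NR4A1, NR4A2 and NR4A3 were higher by 2.15, 2.14 and 2.93, EGR1 by 1.66 and FOS by 1.35. JUN was lower (-0.33 ± 0.048, adjusted p = 4.84e-06). MYC, which had risen under PdB, was at 187, 186 and 210.4 CPM against 177, 185 and 185 in DMSO and did not pass the test (0.10 ± 0.05, adjusted p = 0.106), though it did with RLE, upper-quartile and library-total scaling, with DESeq2 and among genes with a mean of 50 counts or more.

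Among 27 NF-kB targets and cytokines 13 were higher and 3 lower. IL6, an inflammatory cytokine, had 1.57, 1.28 and 2.3 CPM in DMSO, 8.76, 9.33 and 8.69 under PdB and 8.79, 8.24 and 9.77 at recovery. The PdB and recovery values overlapped, and both lay above DMSO (log2 change 2.38 ± 0.18, adjusted p = 3.24e-10). CXCL8 showed the same pattern at 2.23, 2.66 and 3.54 CPM in DMSO, 7.54, 9.95 and 11.8 under PdB and 9.03, 8.37 and 11 at recovery (log2 change 1.75 ± 0.19, adjusted p = 6.79e-08). ICAM1 and TNFAIP3 were higher by 1.61 and 1.43.

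GADD45A, a damage and stress response gene, had 36.4, 37.8 and 41.1 CPM in DMSO, 60.3, 68.7 and 73.2 under PdB and 87.5, 91.7 and 94.8 at recovery (log2 change 1.25 ± 0.069, adjusted p = 3.09e-12). The stress genes SESN2 and TIGAR were higher by 1.43 and 1.26, and MDM2 by 0.36. BAX, a pore-forming killer protein, was lower, with 70.5, 81.5 and 76.9 CPM in DMSO, 71.9, 73.3 and 70.1 under PdB and 40.5, 43.4 and 41.3 at recovery (log2 change -0.87 ± 0.06, adjusted p = 9.09e-11). With library totals it was already lower under PdB.

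In the BCL2 family 7 of 16 genes were higher and 7 lower. BCL2L1, a survival gene, had 591, 601 and 609 CPM in DMSO, 1516, 1430.2 and 1476 under PdB and 352, 345 and 343 at recovery. It too passed from well above DMSO to below it (log2 change -0.79 ± 0.041, adjusted p = 1.12e-12). MCL1, its relative, kept part of its rise (0.49 ± 0.045, adjusted p = 7.11e-09). The pro-death members BMF, PMAIP1, BBC3 and BCL2L11 were higher by 2.05, 1.24, 1.07 and 0.95, and BOK and BAD lower, at -1.10 and -0.71. Of 27 death receptor and caspase genes 10 were higher (37%) and 8 lower (29.6%), not far from the shares over all genes tested. They ran from TNFRSF10D, a decoy receptor for TRAIL, at 2.02 ± 0.066 (adjusted p = 1.9e-15) to GSDME, which caspase-3 turns into a pore, at -1.39 ± 0.091 (adjusted p = 3.88e-11).

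Interferon-stimulated genes did not share a direction. Of 47, 10 were higher and 28 lower under PdB, and 18 were higher and 14 lower at recovery, 12 of them turned from low to high. The shares at recovery were 38.3% and 29.8%, not far from the 30.7% and 30.5% over all genes tested, so this split is not particular to the list. At the stricter adjusted p of 0.01, or without DMSO replicate 2, 11 were higher. SP110, a nuclear body protein, had 4.77, 4.5 and 5.69 CPM in DMSO, 2.76, 3.78 and 3.42 under PdB and 14.4, 11.2 and 12.2 at recovery (log2 change 1.33 ± 0.15, adjusted p = 1.55e-07). GBP1, OAS1 and SAMD9L, antiviral effectors, ended at 1.25, 1.21 and 1.16. DDX60, an antiviral helicase, had 24.2, 22.4 and 29.3 CPM in DMSO, 5.52, 5.86 and 9.28 under PdB and 7.12, 8.23 and 10.4 at recovery and stayed low (log2 change -1.56 ± 0.19, adjusted p = 4.23e-06). STAT2 and IRF9, which carry the interferon signal, were higher by 0.49 and 0.95. IFIT1 turned from high to low (-0.55 ± 0.089, adjusted p = 2.02e-05), and ISG15 was newly lower (-0.52 ± 0.14, adjusted p = 0.00666). In the related list of antigen presentation by MHC class I, 3 of 20 were higher and 10 lower, with the peptide trimmers ERAP1 and ERAP2 at -0.72 and 1.14.

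The core of the interferon response element (TTTCNNTTT, both strands) was in 78.4% of 37 promoters of this list and in 7.18% of all 11135. Members with it were as often higher as lower at recovery (11 and 11 of 29), and of the 8 without it 3 were higher and 1 lower. SP110, the largest rise of the list, and DDX60, which stayed low, are shown for the 150 bases before the RefSeq start, with each match in capitals. Matches overlapped an NF-Y box in 2 and an E2F site in 4 of 799 promoters that hold the core.
SP110 (chr2:230225637-230225786, -): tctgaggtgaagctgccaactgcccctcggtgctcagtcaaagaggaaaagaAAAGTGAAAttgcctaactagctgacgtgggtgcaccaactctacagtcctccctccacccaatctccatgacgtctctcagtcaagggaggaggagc
DDX60 (chr4:168318753-168318902, -): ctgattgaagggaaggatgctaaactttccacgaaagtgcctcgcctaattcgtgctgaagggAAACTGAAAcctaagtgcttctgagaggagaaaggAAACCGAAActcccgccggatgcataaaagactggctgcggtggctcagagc
SP110 has 1 match, 98 bases before its start, and DDX60 has 2, at 87 and 52 bases, all as the reverse complement.

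Lists of protein synthesis genes went different ways. Of 78 cytosolic ribosomal protein genes, all higher under PdB, 44 were still higher and 10 had turned lower (16 lower without DMSO replicate 1), and the median fell from 0.74 to 0.17. RPS15A had 106, 128 and 130.1 CPM in DMSO, 269.7, 268 and 253 under PdB and 201, 212 and 189 at recovery (log2 change 0.73 ± 0.066, adjusted p = 8.55e-09). RPL3 ended lower (-0.62 ± 0.048, adjusted p = 5.06e-10). Of 42 genes of ribosome biogenesis 23 were higher and 11 lower, against 21 and 16 under PdB, from BYSL at 1.61 to BOP1 at -1.42. Among 20 cytosolic aminoacyl-tRNA synthetases, which charge tRNAs, 14 were lower and 3 higher, against 19 and 1 under PdB. FARSB had 76.6, 82.8 and 78.3 CPM in DMSO, 45.7, 49.8 and 44.2 under PdB and 26, 22.8 and 22.2 at recovery (log2 change -1.74 ± 0.071, adjusted p = 3.4e-14), and IARS1 and LARS1 were lower, at -1.59 and -1.37. Of 35 proteasome genes 18 were higher and 12 lower, with the ubiquitin receptor ADRM1 at 1.22 ± 0.048 (adjusted p = 1.76e-14) and the assembly chaperone PSMG1 at -1.33 ± 0.08 (adjusted p = 1.05e-11). Of 49 lysosome and autophagy genes 17 were higher and 17 lower (34.7% each), near the shares over all genes tested. The autophagosome proteins GABARAPL1 and MAP1LC3B were higher by 1.89 and 1.29, and the protease CTSZ lower, at -1.13.

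Single genes with the largest changes, among those with a mean of at least 100 counts and no overlap of the groups, are given by class. In the newly higher class, RELN, a secreted glycoprotein of neuronal positioning (ENSG00000189056.15, chromosome 7, 103471784 to 103989516), had 0.849, 1.36 and 1.21 CPM in DMSO, 0.832, 1.03 and 1.73 under PdB and 14.8, 13.3 and 13 at recovery. PdB and DMSO overlapped, and recovery was 12-fold higher (log2 change 3.58 ± 0.22, adjusted p = 1.92e-11). AVIL, an actin-severing protein, had 0.483, 0.285 and 0.477 CPM in DMSO, 0.743, 0.355 and 0.749 under PdB and 8.82, 9.12 and 8.15 at recovery (log2 change 4.38 ± 0.27, adjusted p = 1.71e-11), and SPTB, the beta chain of spectrin, 0.351, 0.444 and 0.823 CPM in DMSO, 0.177, 0.515 and 0.327 under PdB and 6.96, 6.14 and 6.76 at recovery (log2 change 3.61 ± 0.32, adjusted p = 3.75e-09). Both classes depend on scaling: with upper-quartile factors AVIL passed the test under PdB as higher, and with library totals SPTB did as lower. SNORD3B-2, a copy of the U3 snoRNA whose reads may belong to its other copies, went from 10, 10 and 16 counts to 615, 585 and 532. With 19, 10 and 23 counts under PdB, it also passed the test there as higher with RLE or upper-quartile factors and by DESeq2. AGAP1-IT1 lies in an intron of AGAP1, and with the strand setting of the counting unknown its rise (5.47) cannot be told apart from intronic reads of that gene.

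Still higher genes were led by transcripts that are nearly silent in DMSO. KRT4, a keratin of wet epithelia, had 1, 0 and 7 counts in DMSO and 698, 706 and 493 at recovery. PYGM, the glycogen phosphorylase of muscle (ENSG00000068976.14, chromosome 11, 64746389 to 64760297), had 0.161, 0.127 and 0.0144 CPM in DMSO, 2.62, 2.58 and 3.06 under PdB and 17.8, 17.9 and 13.4 at recovery. It rose in both steps (2.57 from PdB, adjusted p = 3.81e-10), from 11, 8 and 1 counts to 1112, 1122 and 903. RNF225, a ring finger gene, had 2, 0 and 6 counts in DMSO and 368, 293 and 227 at recovery, and had been higher under PdB (-1.84 between PdB and recovery, adjusted p = 2.29e-06). EID3 had 0.381, 0.143 and 0.462 CPM in DMSO, 5.08, 2.11 and 4.52 under PdB and 7.71, 9.22 and 10.3 at recovery (log2 change 4.76 ± 0.36, adjusted p = 9.27e-09).

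At the other end, CDH4, the cell adhesion protein R-cadherin (ENSG00000179242.16, chromosome 20, 61252426 to 61940617), had 139, 136 and 112 CPM in DMSO, 59.1, 56.3 and 60.1 under PdB and 8.13, 9.38 and 11.3 at recovery. The second fall was the larger one (-2.60 from PdB, adjusted p = 1.75e-12), and recovery was 13.4-fold below DMSO (log2 change -3.74 ± 0.11, adjusted p = 5.86e-14). CDK15, a little-studied kinase, fell from 9.91, 10.6 and 7.97 to 2.35, 2.11 and 2.11 and then 0.69, 0.478 and 0.578 CPM (log2 change -4.03 ± 0.21, adjusted p = 1.33e-12). MANCR, a long non-coding RNA, had most of its loss already under PdB, with 35.5, 35.2 and 29.7 CPM in DMSO, 3.63, 4.09 and 4.09 under PdB and 2.39, 2.14 and 2.27 at recovery (log2 change -3.89 ± 0.12, adjusted p = 8.8e-16). PLXNA4 and SEMA3E, a receptor and a ligand of the semaphorin family, were lower, at -3.63 and -3.56. GALNT13, which starts O-linked sugar chains, was newly lower, with 10.6, 9.32 and 9.07 CPM in DMSO, 9.43, 8.42 and 7.19 under PdB and 1.8, 1.69 and 1.75 at recovery (log2 change -2.47 ± 0.15, adjusted p = 1.68e-11). With library totals it already passed the test as lower under PdB.

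Among genes that turned, CCNA1, a cyclin of the germ line and some tumours, had 4.61, 5.25 and 5.99 CPM in DMSO, 1.54, 0.711 and 0.826 under PdB and 24.1, 24 and 20.3 at recovery (log2 change 2.11 ± 0.17, adjusted p = 1.29e-09). Recovery was above both other groups in every library. PID1, an adaptor protein, had 1.96, 2.06 and 2.47 CPM in DMSO, 1.68, 0.746 and 1.44 under PdB and 11.9, 13.4 and 14 at recovery (log2 change 2.60 ± 0.2, adjusted p = 6.58e-10), and GRB7, an adaptor of receptor kinases, 1.67, 2.06 and 2.48 CPM in DMSO, 0.619, 1.21 and 0.999 under PdB and 9.06, 7.88 and 9.28 at recovery (log2 change 2.08 ± 0.21, adjusted p = 4.06e-08). In the other direction FLRT2, a cell surface guidance protein, had 36.7, 37.8 and 27.3 CPM in DMSO, 44.5, 47.9 and 35.1 under PdB and 3.98, 4.67 and 5.23 at recovery (log2 change -2.87 ± 0.15, adjusted p = 2.97e-10), its rise under PdB being lost with library totals. MAML3, a coactivator of Notch, went from 3.78, 2.43 and 4.03 to 8.73, 7.05 and 5.86 and then 0.577, 1.05 and 0.948 CPM (log2 change -1.99 ± 0.26, adjusted p = 9e-07).

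A small set switched between near silence and expression. At most 3 counts in each DMSO library and at least 30 in each recovery library were found for 37 genes, of which 9 were protein coding, and 10 already had at least 30 counts in each PdB library. RSPH6A, a protein of cilia and sperm tails, had no count in DMSO, 22, 51 and 41 under PdB and 110, 129 and 98 at recovery, a rise of at least 39.1-fold when 3 counts per library stand as the floor. IL1RL1, the receptor of interleukin 33, had 1, 0 and 1 counts in DMSO, 0, 1 and 0 under PdB and 43, 42 and 57 at recovery. Only CTXN2 and GNAZ met the reverse rule: GNAZ, a G protein subunit, had 97, 34 and 56 counts in DMSO and 0, 0 and 1 at recovery.

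Gene structure differed between the classes. The median genomic span of protein-coding genes was 52.7 kb in the still lower class and 22.6 kb in the still higher one, against 32.8 kb over all tested, and the median number of introns was 11, 5 and 7. Newly lower genes had 35.1 kb and 7 introns and newly higher genes 26.5 kb and 6. Genes that turned from high to low had 23.4 kb and 5 introns, those that turned the other way 33.6 kb and 9. Across spans, 28.4% of the 1239 genes under 5 kb were lower at recovery and 35.4% higher, while among the 191 genes over 500 kb 51.8% were lower and 14.7% higher. The medians of these bins were 0.11 and -0.72 at recovery and 0.46 and -0.83 under PdB. Genes of similar span share other traits, such as expression and sequence composition, and these shares are a description over genes, which are not replicates.

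**Figure D5:**
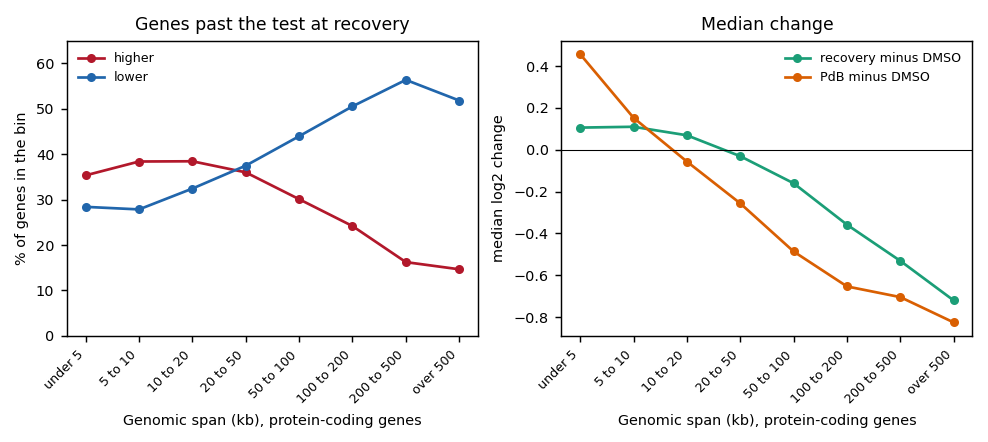
Left, percentage of protein-coding genes higher or lower at recovery than in DMSO by genomic span. Right, median log2 change in the same bins at recovery and under PdB. The share lower is 28.4% under 5 kb, 27.85% from 5 to 10 kb, 56.4% from 200 to 500 kb and 51.8% over 500 kb. The median at recovery is 0.11 under 5 kb and -0.72 over 500 kb.

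Gene types and positions differed as well. Protein-coding genes made up 68.4% of genes tested, 70.1% of the still higher class, 89.5% of the still lower and 61.8% of the newly higher class. Of 258 snoRNA genes tested, 171 were still higher and 1 still lower. By chromosome, the share of genes higher at recovery ran from 25.4% on X to 42.2% on 19 among nuclear chromosomes. Chromosome 19 carries large clusters of zinc finger genes, and genes named ZNF were looked at after this was seen: 317 of 479 were higher and 55 lower (median 0.67, against 0.74 under PdB). On chromosome 19, 181 of 236 ZNF genes (76.7%) were higher, and of its 1265 other genes 35.7%. Zinc finger genes of these clusters are similar in sequence and may share reads.

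The share of promoters with each element varied by class. Over the 6 classes the CHR element lay in 7.40% to 10.7% of promoters, the NF-Y box in 34.2% to 38.7% (36.4% of all) and the AP-1 site (TGANTCA) in 2.81% to 5.34% (4.76% of all). E2F sites (TTTCCCGC or TTTGGCGC) were in 2.96% to 4.22% of promoters by class and 3.61% of all, and in 37.0% of 46 promoters of replication genes. The cyclic AMP element (TGACGTCA) was in 4.09% of still higher and 1.85% of newly higher genes (3.14% of all), and the CLEAR core (TCACGTGA) in 3.06% and 0.556% (1.89% of all). The ISRE core was in 17.2% of the 99 promoters of genes that turned from low to high by at least 2-fold, against 7.49% of the whole class. That is the highest share of any class at that cutoff, where the others ran from 2.27% to 10.6%, and 7.18% of all promoters hold it. The shares named for single classes were picked after those of all elements and classes were seen, with and without the 2-fold cutoff. None was tested.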

How the data were processed

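RNA of 9 MDA-MB-231 libraries (3 DMSO, 3 PdB, 3 recovery) had been sequenced after poly(A) selection. The authors deposited raw read counts per gene. The submitters' processing notes name hg38, featureCounts 2.0.3, STAR 2.7.9a, fastp 0.23.2, Picard and DESeq2 1.30.0, without their roles. Strand, duplicate and multi-mapping settings: not given in the sources used here. Counts summed to 56389689 to 67047079 per library. From them, genes passing edgeR's filterByExpr (20812 of 60708) were fitted with edgeR 4.0.16 (R 4.3.3; TMM factors, robust quasi-likelihood, all 9 libraries, 1 coefficient per group), with two-sided tests and Benjamini-Hochberg adjustment over all genes tested. A gene that passed the filter only through its recovery libraries could hardly be called other than higher, and such genes are part of the counts. Changes are log2 with standard errors, and CPM use TMM-scaled totals. Exon structure came from GENCODE 29 (58440 genes matched) and promoters from RefSeq (GRCh38.p14; 11135 of 14226 protein-coding genes tested, 250 bases before to 50 after the start). Medians by class and list carry no test. The fit was tested on simulated counts with 200 changed genes. With 12733 genes called in the data, that setting cannot test the scaling under so broad a change. Alternatives were DESeq2 1.42.0, scaling by library totals, upper quartiles or RLE, other filters and thresholds, a test against a 2-fold change, a replicate block, fewer libraries and each library left out.

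Classes, the 46 lists and the rule for named genes were chosen with earlier results of these data known. The rule took, per class, the 6 largest changes among genes averaging 100 counts or more without overlap, the 8 largest rises and falls in CPM, the largest changes per list and 50 fixed genes; further genes named and the promoters shown were chosen after their values were seen. Some genes and 1 list are not reported here.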

Additional observations from a re-analysis of the deposited data

How the results depend on the processing

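The comparison of recovery with DMSO kept its size under most alternatives. Against the 12733 genes called, other scalings, filters, DESeq2, FDR 0.01 and the 6 libraries alone called 10925 to 13573, and the share of calls that were higher ran from 49.0% to 54.6%. No gene called changed sign in any of these settings. Testing against a 2-fold change called 2893 genes, 1541 higher and 1352 lower, with 950 still higher, 547 still lower, 566 newly higher, 9 turned from high to low and 25 turned from low to high, and 262 newly higher and 323 newly lower genes that also differed from PdB. Newly higher genes numbered 610 when the PdB change had to be under 1.2-fold and 760 with a mean of at least 50 counts. Genes turned from high to low numbered 602 with library totals, and genes turned from low to high 1878. Leaving out 1 library at a time gave 11725 to 13294 calls, 5844 to 6713 higher and 5873 to 6581 lower (by at least 2-fold 2593 to 3016 and 2292 to 2537), 3623 to 3917 still higher, 3877 to 4312 still lower, 1017 to 1386 newly higher and 1019 to 1346 newly lower (789 to 995 and 857 to 1051 also different from PdB), 884 to 1070 turned from high to low and 1172 to 1457 turned from low to high. The shifts in composition, an alternative chosen after seeing the data, stayed between 2.64 and 3.10 percentage points for mitochondrial counts. Deviations from the group means correlated at 0.029, 0.11 and 0.16 between libraries of the same replicate number, and at -0.15 to 0.055 between others. With 3 libraries a group these values cannot decide whether replicate numbers pair the samples. A replicate block called 12922 genes, 12566 of them also called without it in the same direction. Medians of lists near 0 changed sign. That of the unfolded protein and integrated stress response became 0.0042 with RLE, 0.0043 with DESeq2, 0.029 with library totals and 0.035 with upper-quartile factors. That of G2 and mitosis became 0.010 and 0.015 with these 2, nuclear oxidative phosphorylation 0.014 and 0.020, and interferon-stimulated genes 0.015 and 0.022, 0.10 with a mean of at least 50 counts, 0.095 without DMSO replicate 3, and 0.063 and 0.036 without recovery replicate 1 or 2. The median of YAP and TGF-beta targets became -0.012 without a filter, -0.047 without DMSO replicate 2 and -0.048 without recovery replicate 3, and with a mean of at least 50 counts leukocyte markers came to -0.24 and fibroblast and endothelial markers to -0.36. For these the cause was not tested. Among genes named by the rule, no call changed direction. Counted over genes and alternatives, 123 results lost the call, 20 gained one and 3320 were unchanged. Classes moved as well: with RLE or upper-quartile factors or DESeq2, CD44, CYC1 and FAAP100 were newly lower in place of still lower. With 3 libraries a group, genes of a few counts carry wide errors, and counts per gene say nothing of splicing.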
